A study of Mus musculus with 2 samples.

Results

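The cytosolic ribosomal protein genes were described here in immune cells sorted from mouse tumours. They were taken by symbol: every gene listed for both libraries whose symbol was Rpl or Rps followed by a digit, or was Rplp0, Rplp1, Rplp2 or Rpsa, leaving out the Rps6k kinases and the pseudogenes marked -ps. This gave 86 genes of the 22483 symbols listed for both libraries, 52 named for the large subunit and 34 for the small subunit. Of these, 8 are paralogues written with an l suffix, or Rps19bp1, and the other 78 are the core set. The data are 2 single-cell RNA libraries, 1 per condition. MC38 cells, a mouse colon carcinoma line, were grown under the skin of C57BL/6 mice. In the PBM group the mice received photobiomodulation, a treatment with light, daily from day 7, and in the Control group they are labelled as controls. Tumours of both groups were taken on day 14, digested, and sorted for CD45, the surface protein of white blood cells, and the cells of a group were pooled. How many mice went into a pool is not given in the sources used here, so treatment, mice and library cannot be told apart. With 1 library per group no test was possible, and every interval below is a 95% interval for counting error only.

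A ribosome joins a small and a large subunit, and each subunit is a shell of proteins around ribosomal RNA. Most ribosomal protein mRNAs begin with a C followed by a run of pyrimidines at the very 5′ end (the terminal oligopyrimidine, or TOP, element), through which the growth-sensing kinase complex mTORC1 controls their translation. Their mRNAs are abundant in resting lymphocytes, which hold little other mRNA, and the proteins are made in greater amounts once the cells are activated. A few subunits have a second copy of the gene elsewhere in the genome, and these paralogues can be used in particular tissues. Rps27l is a paralogue of Rps27 that the tumour suppressor p53 induces, and Rpl22l1 is a paralogue of Rpl22, a protein needed for the development of T cells.

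The starts of some of these genes are shown because the members below that differ most from the rest can be set beside the element that the family shares. Each sequence runs 5′ to 3′ from 10 bases before a start listed in the RefSeq promoter table to 15 bases from it on, in build GRCm38.p6. Capitals mark a run of at least 5 pyrimidines that begins with a C within 5 bases of the start.
Rps27, chr3:90213634-90213658, minus strand: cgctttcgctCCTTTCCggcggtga
Rps27rt, chr9:114982725-114982749, minus strand: ttatcccttgCTTTCCggcggtgac
Rps27l, chr9:66946076-66946100, plus strand: cctccccgccgCCTCTatcccggaa
Rpl12, chr2:32961702-32961726, plus strand: agcaggatccgtCTTTTCggctttc
Rps24, chr14:24490668-24490692, plus strand: gctggggtcCTTCCTTgcgcgttga
Rpl7a, chr2:26910797-26910821, plus strand: ctcttctttCTTTCTCCagcagccg
Rpl41, chr10:128549154-128549178, minus strand: gggccggctcggaagtgacgacacc
Rpl27, chr11:101442235-101442259, plus strand: ctgttcctgtctgctgctcgtgctg
The starts of Rpl12, Rps24 and Rpl7a hold such a run, and those of Rpl41 and Rpl27 do not. Rps27l and Rps24 each have another listed start without a run. The run at the start is 7 pyrimidines long in Rps27 and 6 long in Rps27rt. A RefSeq start is not a measured cap site. Of the 86 members, 66 had a promoter in the RefSeq table, and 30 of these (45.5%) had a start with such a run, against 3542 of the 15334 symbols of both lists with a promoter (23.1%). Among mitochondrial ribosomal protein genes, whose products build the separate ribosome of the mitochondrion, 17 of 69 (24.6%) had a run. The letters CCGGAAG, a core of ETS factor binding sites, were looked for on both strands in the 300 bases around each start, and were found for 26 of the 66 members (39.4%) and for 15.2% of the symbols of both lists. They were found for 37.7% of the mitochondrial ribosomal protein genes. A match says only that these letters are in the window.

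The Control library held 11238 cell barcodes and 104673228 unique molecular identifiers (UMIs, each a counted mRNA molecule), and the PBM library 13962 barcodes and 86159897 UMIs, with medians of 5621.5 and 5143.5 UMIs per barcode. After filters and removal of called doublets 11077 and 13062 cells were kept. The 2 libraries share 1991 barcode names, which are cell numbers and not sequences. Cells were clustered without the ribosomal protein genes, and clusters were named from marker genes, giving T-like, B-like, natural killer (NK)-like and monocyte/macrophage-like classes. The libraries differ in which cells they hold: the Control library had 5080 monocyte/macrophage-like, 2581 T-like, 1344 NK-like and 206 B-like cells, and the PBM library had 176, 6159, 197 and 5587. A cluster of 1210 Control cells and 7 PBM cells was led by Sparc, a gene of stromal cells, and is called Sparc-led. Ptprc, the gene of CD45, was at 27.9 UMIs per 1000000 (CPM) in these Control cells, against 112 to 772 CPM in the other classes of that library.

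Ribosomal protein mRNAs made up 22.3% of the UMIs of all kept Control cells and 37.0% of those of all kept PBM cells. The same cell class took a different share in the 2 libraries, and the classes of a library differed more widely still. In the Control library the share ran from 29.2% in B-like cells, 29.0% in Sparc-led cells and 28.6% in NK-like cells, through 27.0% in effector CD8 T cells, 25.8% in conventional CD4 T cells and 25.1% in cycling T cells, to 19.7% in regulatory T cells. By summed UMIs the named myeloid labels stood lower, with 18.8% in monocytes, 17.5% in dendritic-like cells, 16.6% in macrophages and 12.1% in neutrophil-like cells. Over cells, though, the median of regulatory T cells (17.8%) was below that of monocytes (19.0%), and an unnamed cluster of 318 cells led by Cd209a, Cd209d and Clec10a had 23.1%. In the PBM library naive-like T cells had 39.8%, B-like cells 35.0%, gamma-delta or innate-like T cells 32.1%, cycling T cells 30.4%, NK-like cells 26.7% and monocytes 23.2%. Between each pair of neighbours in either order, the central range over cells (lowest to highest decile) overlapped.

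**Figure D1:**
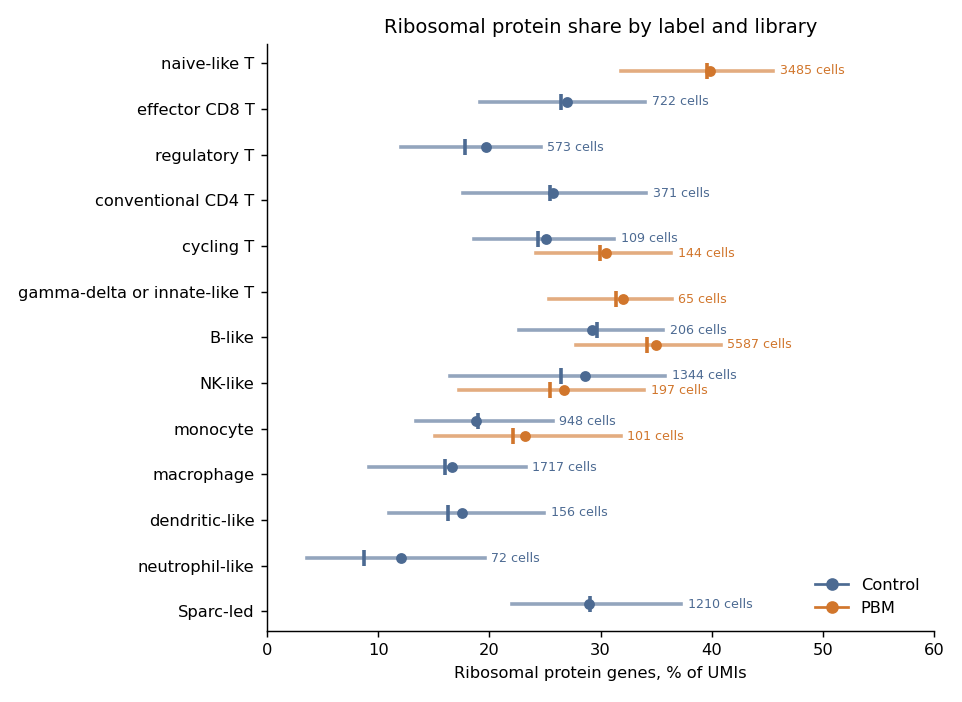
Ribosomal protein genes as a percent of UMIs (x axis) for each cell label (y axis) with at least 50 cells in a library, Control in blue and PBM in orange. A dot is the share of summed UMIs, a tick the median over cells and a bar the range from the lowest to the highest decile of cells. In Control the B-like, NK-like and effector CD8 T cells lie to the right of macrophages and neutrophil-like cells, regulatory T cells lie close to monocytes, and naive-like T cells of the PBM library lie furthest right at 39.8%.

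T-like cells showed the widest difference between the libraries. Their share was 26.1% in Control and 38.5% in PBM, 12.4 percentage points higher in PBM (interval 12.37 to 12.43), a ratio of 1.48. Over single cells the lowest decile, the median and the highest decile were 15.6%, 25.1% and 35.7% in Control, and 29.0%, 39.1% and 45.6% in PBM. The ranges overlap between 29.0% and 35.7%, and the PBM median lies above the highest decile of Control cells. A T-like cell held a median of 1068 ribosomal protein UMIs in Control and 2258 in PBM, whereas its other UMIs had medians of 3186 and 3456.

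The 2 libraries filled the T-like class with different clusters. In Control 37.0% of T-like cells lay in a cluster led by Ifng, Ccl4 and Pdcd1, genes of activated killer T cells, 34.9% in a cluster led by Cxcr6, Cxcr3 and Cd4, and 22.6% in a cluster led by Foxp3, Tnfrsf4 and Il2ra, genes of regulatory T cells. In PBM 44.0% lay in a cluster led by Gm12840, Trat1 and Cd4 and 40.8% in a cluster led by Ccr9, Dapl1 and Cd8b1. In 2 of the 3 clusters with at least 50 cells in both libraries the shares lay closer together. The Cxcr6-led cluster had 29.2% in Control and 30.4% in PBM, and the Trat1-led cluster had 36.3% and 38.8%. The Foxp3-led cluster had 19.4% in 583 Control cells and 30.7% in 600 PBM cells, but re-clustering placed 557 of the 583 Control cells in a group led by Klrg1, Il10 and Foxp3 and 567 of the 600 PBM cells in another led by Tiam1, Izumo1r and Nrp1. The mean difference over these clusters was 5.02 points, against 12.4 points over the whole class.

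Markers of other cell types differed with the library in the T-like class too. B cell markers, 9 of 9 detected in each library, summed to 23.9 CPM in Control and 746 CPM in PBM, and the 11 monocyte and macrophage markers, all detected in both, to 1419 and 43.6 CPM. Free RNA, the RNA of broken cells that is counted in every droplet, was estimated from such markers at 13.0% and 19.8% of T-like UMIs. With it subtracted the shares were 26.6% and 38.8%, a difference of 12.2 points. Mitochondrially encoded genes took 0.135% of T-like UMIs in Control and 0.0357% in PBM. Leaving these genes out was among the alternatives run, and the share stayed higher in PBM under all of them. Why the mitochondrial share differed was not tested.

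B-like cells had 29.2% in Control and 35.0% in PBM, 5.81 points higher in PBM (interval 5.70 to 5.92), with medians over cells of 29.7% and 34.2%. The deciles ran from 22.6% to 35.6% in the 206 Control cells and from 27.8% to 40.8% in the 5587 PBM cells, and they overlap between 27.8% and 35.6%. The cluster led by Mzb1, Fcmr and Ighm held 86.4% of Control B-like cells, and there the share was 29.98% in Control and 34.94% in PBM. In PBM the largest part, 57.3%, fell in the cluster headed by Ms4a1 and Fcer2a, which had 10 Control cells. Median depth in the class was 2665 UMIs per cell in Control and 4445 in PBM, and monocyte and macrophage markers, 11 of 11 detected in each, summed to 1635 and 199 CPM.

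NK-like cells went the other way, with 28.6% in Control and 26.7% in PBM, 1.86 points lower in PBM (interval 1.76 to 1.96 lower). Their deciles, 16.5% to 35.8% and 17.3% to 33.9%, almost coincide. The libraries filled the class differently: at clustering resolution 2 it split into a cluster led by Gzmc, Gzmd and Gzme, all granzymes, with 535 Control and 8 PBM cells, and a cluster led by Klra8 and Gzma with 808 and 189. The sign was not the same under every setting. With called doublets kept, and all cells clustered and named anew, PBM was 1.81 points higher. Among cells of 2000 to 6000 UMIs it was 0.0994 points higher. With free RNA subtracted, PBM was 5.06 points lower. In NK-like cells T cell markers, 9 of 9 detected in each library, summed to 1267 and 2188 CPM and B cell markers to 20.2 and 778 CPM. Median depth was 4872.5 UMIs per cell in Control and 3706 in PBM.

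Monocyte/macrophage-like cells had 17.4% in Control and 19.9% in PBM, 2.49 points higher in PBM (interval 2.38 to 2.59), with deciles of 9.82% to 23.9% and 10.9% to 29.9%. With free RNA subtracted the direction reversed, to 2.18 points lower in PBM: the estimate was 12.9% of UMIs in Control and 23.8% in the 176 PBM cells. Single markers gave estimates of 10.2% to 24.9% in Control and 16.2% to 34.0% in PBM. T cell markers in the class summed to 178 and 1056 CPM and B cell markers to 16.4 and 1215 CPM, with 0 of 9 markers at 0 in either library. Median depth was 6973.5 and 2184 UMIs per cell. The clusters that make up the class differed, with 41.8% of Control cells led by Cxcl2, Tmem119 and Clec5a and 43.2% of PBM cells led by Ace, Adgre4 and Treml4, genes of patrolling monocytes. Within clusters the direction was mixed, on 31 to 76 PBM cells each. The Cxcl2-led cluster had 18.3% in Control and 16.7% in PBM, and the Ccl8-led cluster 16.1% and 14.4%. The Ly6i-led cluster had 15.5% in Control and 17.1% in PBM, and the Ace-led cluster 19.8% and 24.6%. Among re-clustered monocytes the share was 18.8% in 948 Control cells and 23.2% in 101 PBM cells, 4.41 points higher in PBM. With free RNA subtracted it was 0.160 points higher, so at that estimate almost none of the difference was left. The estimate is rough: single markers gave 8.07% to 59.8% in Control monocytes and 16.9% to 40.0% in PBM ones. Within the Control library macrophages had 2.17 points less than monocytes, 16.6% against 18.8%, with deciles of 9.17% to 23.3% and 13.4% to 25.7%. Of PBM macrophages there were 6, and no comparison was made.

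Naive-like and effector T cells lay in different libraries, so the type and the library cannot be told apart between them. The PBM library held 3485 naive-like T cells, named from genes such as Lef1 and Ccr7 of cells that have not met their antigen, and 8 effector CD8 T cells. The Control library held 722 effector CD8 T cells, named from killer genes such as Nkg7 and Gzmb, and 23 naive-like cells. The share was 39.8% in the naive-like cells of PBM and 27.0% in the effector cells of Control, 12.8 points apart. The deciles were 31.9% to 45.5% for naive-like cells and 19.2% to 34.0% for effector cells, which overlap between 31.9% and 34.0%. The 23 Control naive-like cells had 36.6% and the 8 PBM effector cells 27.0%, too few for a comparison.

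Within a library the 2 kinds of T cell could be set against each other with a simple gate on UMIs. Naive-gated T-like cells had a UMI of a naive marker, such as Ccr7 or Lef1, and none of Nkg7, Ccl5, Gzmb, Ifng or Pdcd1, and effector-gated cells the reverse. In Control the share was 30.5% in 70 naive-gated cells and 25.1% in 1403 effector-gated cells, 5.36 points higher in the naive-gated cells. In PBM it was 38.0% in 1673 naive-gated cells and 32.5% in 205 effector-gated cells, 5.51 points higher. The medians over cells were 29.1% in naive-gated and 24.2% in effector-gated cells of Control, and 37.8% and 30.1% in PBM. The deciles overlap widely, at 13.6% to 43.1% and 15.5% to 33.3% in Control, and 28.8% to 44.4% and 20.8% to 43.6% in PBM. In Control the lowest decile of naive-gated cells was thus below that of effector-gated cells. The effector gate took 205 cells in PBM, where 8 cells were named effector CD8 T cells, so a gate does not hold the same kinds of cell in the 2 libraries. The gate needs detected UMIs, and the median depth was 3097.5 UMIs in naive-gated and 3731 in effector-gated Control cells, and 4664 and 3406 in PBM.

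Single genes followed the total in T-like cells. A member was counted when it had at least 20 UMIs over both libraries, and was called higher or lower at a CPM ratio of 1.5 or more. In T-like cells 39 of 84 members were higher in PBM, where 13.0% of all genes were, and 1 was lower, where 28.5% of all genes were. The median log2 ratio was 0.56 over the members and -0.18 over all genes. Members with a ratio above 1 numbered 82 of 84, against 5206 of the 13970 genes tested. Small-subunit genes had a median of 0.62 and large-subunit genes 0.50, with 20 of 34 and 19 of 50 called higher. Because CPM are shares of a total, a larger member pool lowers every other gene. Scaled by TMM factors, which moved the median of all genes from -0.18 to 0.02, the median over members was 0.76 and 66 were called higher, where 18.3% of all genes were. With the UMIs of other genes as the denominator 71 were called higher, where 20.6% of all genes were.

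In B-like cells 0 of 83 members were called higher (10.8% of all genes were) and 0 lower (24.9%). The median log2 ratio was 0.29 over members and -0.13 over all genes. Above a ratio of 1 were 81 of 83 members and 4039 of the 11681 genes tested. TMM factors, which moved the median of all genes to 0, gave 11 called higher, where 16.01% of all genes were. In NK-like cells 1 of 84 was called higher (19.5% of all genes), Rps27rt, and 2 lower (18.0%), Rpl39l and Rps19bp1. Rpl39l had 19 UMIs in Control and 1 in PBM, and the log2 ratio of Rps19bp1 had an interval of -1.34 to 0.08. Above a ratio of 1 were 25 members and below it 59, against 5901 and 4935 of the 11063 genes tested. With TMM factors 1 member was called higher and 4 lower, where 15.5% and 20.6% of all genes were. In monocyte/macrophage-like cells 5 of 85 were called higher (19.0% of all genes) and 0 lower (18.3%). These 5 were Rps27, Rps27rt, Rps9, Rpl3l and Rpl39l. In monocytes 4 of 84, Rpl10a, Rpl12, Rpl7l1 and Rps27rt, were called higher (15.0%) and 0 lower (22.4%). The share of members called higher was thus above that of all genes in T-like cells and below it in the other classes. Genes with as few as 20 UMIs enter the share of all genes, which was not matched to the members by UMIs. By median log2 ratio the members were above all genes in B-like cells, in monocyte/macrophage-like cells (0.21 against 0) and in monocytes (0.30 against -0.05). In NK-like cells they were below (-0.10 against 0.05).

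Between naive-like T cells of PBM and effector CD8 T cells of Control, 38 of 84 members were called higher in the naive-like cells (20.9% of all genes) and 2, Rps27l and Rps19bp1, lower (27.3%). Among the gated cells of Control 6 of 83 were called higher in naive-gated cells (21.3%), namely Rpl12, Rplp1, Rps19, Rps24, Rps27 and Rps29, and 1, Rps19bp1, lower (20.4%). Among the gated cells of PBM 0 of 83 were called higher (12.6%) and 2, Rps27l and Rps19bp1, lower (18.0%). The median log2 ratio over members was 0.54 in the first of these comparisons, and 0.24 and 0.23 among the gated cells of Control and PBM. The first comparison crosses the libraries and also holds other cells than the gates, so the reason for its larger number of calls cannot be told. The members under 20 UMIs in a comparison were Rpl10l in every class and Rpl3l or Rpl39l in some.

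**Figure D2:**
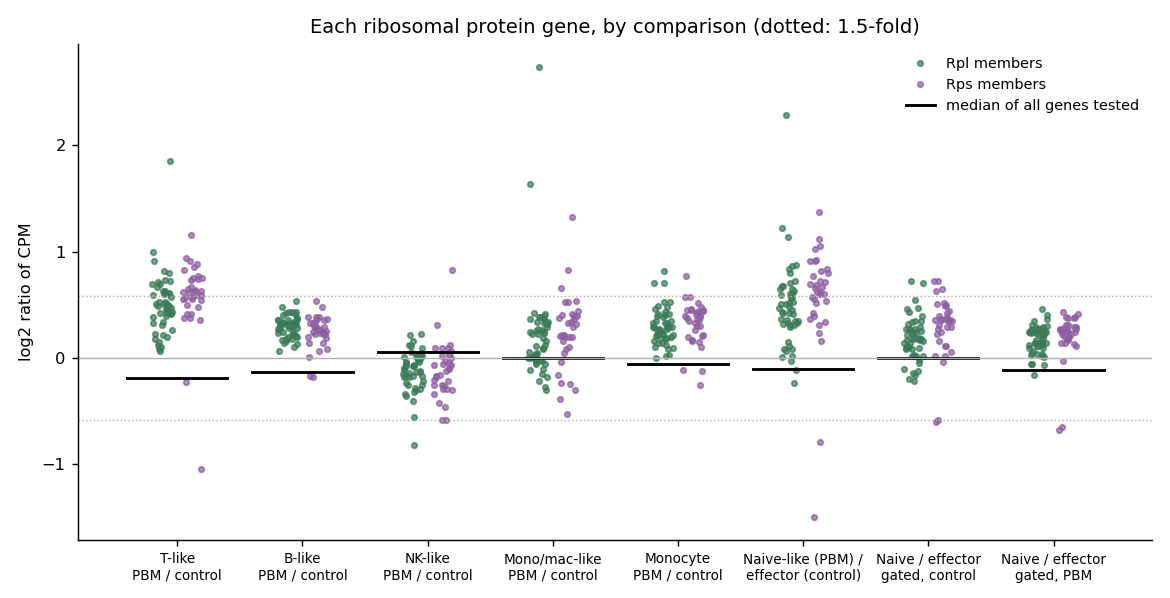
The log2 ratio of CPM of each ribosomal protein gene (y axis) in each of 8 comparisons (x axis), large-subunit genes in green and small-subunit genes in purple. Black bars are the median of all genes tested and dotted lines a ratio of 1.5. Most members lie above the black bar in T-like and B-like cells and below it in NK-like cells, and the lowest purple point of the T-like column is Rps27l.

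Among the most abundant members over the 4 classes were Rpl41, Rps27, Rpl13a and Rps24, all structural subunits, with mean levels of 6878, 6854, 6476 and 6248 CPM. These are 3′ UMI counts and are not compared per length. Rps27 was at 5399 CPM in T-like cells of Control and 9562 in those of PBM, 9386 and 10371 in B-like cells, 5239 and 6520 in NK-like cells and 3006 and 5347 in monocyte/macrophage-like cells. It was thus higher in PBM in each class, with the caution on its retrocopy given below. Rpl41, the smallest protein of the ribosome, was at 7204 and 7627 CPM in T-like cells, 5625 and 7300 in B-like cells, 7690 and 6841 in NK-like cells and 6251 and 6484 in monocyte/macrophage-like cells, the most even of these 4 across classes.

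Of the acidic stalk proteins, which recruit elongation factors to the large subunit, Rplp0 was at 3067 and 4696 CPM in T-like cells, Rplp1 at 4945 and 9297 and Rplp2 at 3874 and 5864. In NK-like cells the same genes were at 3019 and 2788, 5643 and 6087, and 3938 and 3908 CPM, so the stalk differed little between the libraries there. Rpl12, which sits at the base of the stalk, was at 3201 CPM in T-like cells of Control and 6386 CPM in those of PBM, against 3840 and 5179 in B-like cells, 3422 and 3096 in NK-like cells and 1782 and 2091 in monocyte/macrophage-like cells. Rps19, the small-subunit gene most often mutated in Diamond-Blackfan anaemia, was at 2435 and 4583 CPM in T-like cells and 2488 and 2215 in NK-like cells. Rpsa, a small-subunit protein also known as the laminin receptor precursor, was at 4060 and 5646 CPM in T-like cells, 3872 and 4860 in B-like cells, 3961 and 3557 in NK-like cells and 1734 and 2516 in monocyte/macrophage-like cells.

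To see members that move apart from the pool, each was also taken as a percent of all member UMIs. Only members with at least 100 UMIs over the 2 sides were ranked, here and below. In T-like cells this left out Rpl39l, with 6 and 56 UMIs, whose percent of the pool was also more than 1.5-fold higher in PBM. Among the ranked members the log2 ratio of the percent, PBM over Control, was largest in T-like cells for Rps27rt at 0.60, Rpl12 at 0.43, Rps24 at 0.38, and Rps19 and Rplp1 at 0.35 each. It was smallest for Rps27l at -1.61, Rps19bp1 at -0.78, Rpl7l1 at -0.49, Rpl41 at -0.48 and Rpl27 at -0.45. Rps24 was at 5055 CPM in Control T-like cells and 9715 in PBM ones, while Rpl27 was at 1624 and 1751. Rps27l was at 215 and 104 CPM, below its Control level against a pool that was larger. Large-subunit genes took 56.2% of the T-like pool in Control and 53.9% in PBM. The SD of the pool ratio over the 78 core members was 0.21 in T-like, 0.11 in B-like, 0.20 in NK-like and 0.27 in monocyte/macrophage-like cells, so the make-up of the pool differed least between the B-like cells of the libraries.

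In B-like cells the largest pool ratios were those of Rps19bp1 at 0.27, which rests on 15 Control UMIs and has an interval of -0.45 to 1.12, Rpl3 at 0.27, Rpl24 and Rps27rt at 0.22 and Rpl12 at 0.17, and the smallest those of Rps27l at -0.44, Rps29 at -0.43, Rps3a1 at -0.25 and Rpl38 at -0.19. Rpl3, a core protein next to the catalytic centre of the large subunit, was at 1494 CPM in Control and 2167 CPM in PBM B-like cells. In NK-like cells Rps27rt stood at 0.92, Rps27 at 0.41, Rpl19 at 0.32, Rpl7l1 at 0.31 and Rpl30 at 0.26, and at the other end Rps19bp1 at -0.49, Rps27l at -0.48, Rpl35 at -0.45 and Rps2 at -0.32. The values of Rps19bp1 and Rpl7l1 rest on 19 and 44 PBM UMIs, with intervals of -1.24 to 0.18 and -0.17 to 0.76. Rpl35 was at 3534 CPM in Control and 2415 in PBM NK-like cells. In monocyte/macrophage-like cells the ratios were led by Rpl39l at 2.55, which rests on 93 and 7 UMIs, and Rpl3l at 1.44, on 315 and 11 UMIs, followed by Rps27rt at 1.13, Rps27 at 0.64 and Rps9 at 0.47. At the lower end were Rps19bp1 at -0.72, on 18 PBM UMIs, Rps27l at -0.58, Rpl36a and Rps25 at -0.49 and Rpl31 at -0.47. In monocytes alone the ends were Rpl12 at 0.51 and Rps27l at -0.56, and with free RNA subtracted Rpl12 was at -0.032 and Rps27l at 0.035. Rps27l was among the 5 smallest, and Rps27rt among the 5 largest, in each of these 5 comparisons, though with free RNA subtracted the ratio of Rps27l was above 0 in B-like (0.15), monocyte/macrophage-like (0.045) and monocyte cells.

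The naive-like T cells of PBM against the effector CD8 T cells of Control gave the same 2 ends, Rps27rt at 0.81, Rpl12 at 0.66, Rplp1 at 0.58, Rps24 at 0.56 and Rps27 at 0.49, and Rps27l at -2.06, Rps19bp1 at -1.35, Rpl7l1 at -0.80, Rpl41 at -0.67 and Rpl7a at -0.59. It shares cells with the T-like comparison. In levels, Rpl12 was at 2933 CPM in the effector and 6859 CPM in the naive-like cells and Rps24 at 4789 and 10396, whereas Rpl41 was at 7875 and 7298 and Rpl7a at 1826 and 1792. Within the Control library alone, Rpl12 was at 2889 CPM in effector-gated and 4712 in naive-gated cells, Rps24 at 4715 and 7813, and Rpl41 at 7100 and 6120. Within the PBM library Rpl12 was at 5030 and 6678 CPM, Rps24 at 7548 and 9857 and Rpl41 at 6930 and 6683. Rpl12 and Rps24 were therefore higher, and Rpl41 lower, in the naive-gated cells of each library.

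**Figure D3:**
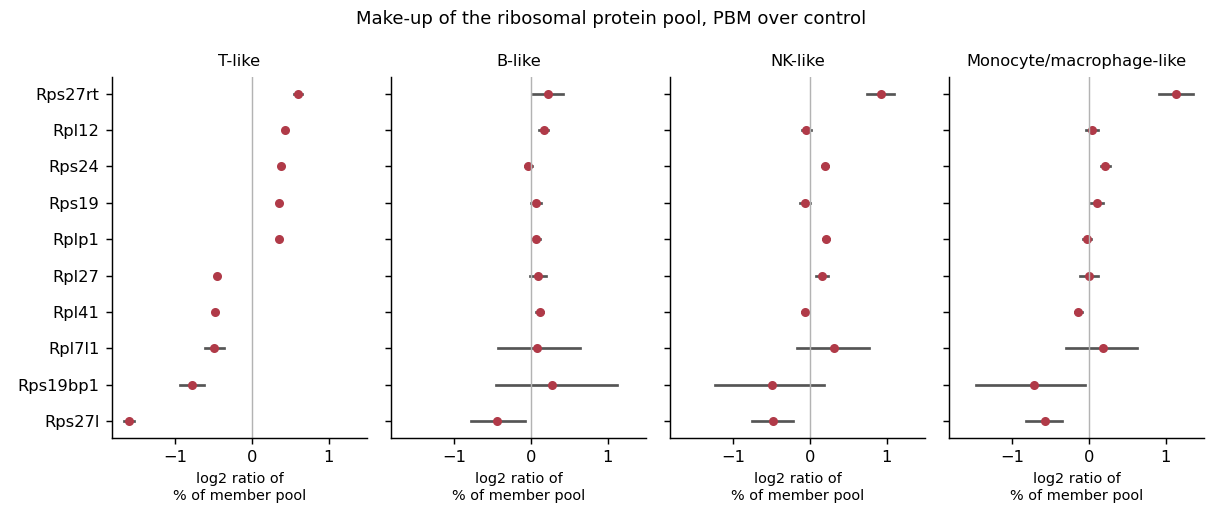
The log2 ratio, PBM over Control, of each gene's percent of the ribosomal protein pool (x axis) in the 4 classes. The genes (y axis) are the 5 members with the largest and the 5 with the smallest ratio in T-like cells, among those with at least 100 UMIs. Dots are the ratio and bars its 95% counting interval. Rps27l lies left of 0 in all 4 classes, at -1.61 in T-like cells (with free RNA subtracted, right of 0 in B-like and monocyte/macrophage-like cells), and Rps27rt right of 0 in all 4.

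Rps27rt is a retrocopy of Rps27, and the 2 cannot be counted apart with certainty: 91.1% of the 50-base stretches of the Rps27rt transcripts also occur in Rps27. Its level, 205 CPM in Control T-like cells and 458 in PBM ones, is uncertain for that reason, and so in part is that of Rps27, at 5399 and 9562 CPM. Of the 86 members, 30 have more than 1 in 2 of their 50-base stretches in another annotated gene, mostly processed copies, and 4 have none there. Rpl7a shares 81.2% of its stretches, Rpl12 49.0% and Rpl41 43.9%. Rps27l shares 13.7%, and Rpl3l and Rpl39l share none.

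Rps27l was measured against Rps27 as UMIs per 1000 of the pair. It took 7.33 per 1000 in naive-like T cells of PBM (interval 6.99 to 7.68), 41.5 in effector CD8 T cells of Control (39.2 to 43.9) and 62.0 in regulatory T cells (58.0 to 66.3). Cycling T cells had 70.1 per 1000 in Control and 49.1 in PBM, conventional CD4 T cells 22.5 and B-like cells 11.7 in Control and 9.41 in PBM. Thus naive-like T cells of PBM and B-like cells were low. Effector CD8 and regulatory T cells of Control were high, as were cycling T cells of both libraries, so state and library are partly mixed here. Between libraries the share was 38.3 and 20.9 per 1000 in NK-like cells and 48.9 and 30.9 in monocytes, lower in PBM in each. Free RNA was estimated at 15.1% of monocyte UMIs in Control and 25.7% in PBM. The pair shares were not computed with it subtracted, and the pool ratio of Rps27l in monocytes then changed sign, as given above. Macrophages of Control had 105 per 1000. The highest share was that of 156 dendritic-like cells of Control, led by Ccl22 and Il12b, genes of mature dendritic cells, with 264 per 1000 (253 to 275) on 1691 UMIs of Rps27l, a level of 1740 CPM. In the other labels with at least 50 cells Rps27l reached from 75.9 CPM in naive-like T cells of PBM to 368 CPM in Sparc-led cells. Within libraries the gated T cells kept this order, with 16.4 per 1000 in naive-gated and 39.7 in effector-gated Control cells, and 8.67 and 16.7 in PBM. The effector-gated cells of PBM were thus close to the naive-gated cells of Control.

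Rpl22l1 varied less. It took 192 per 1000 UMIs of Rpl22 and Rpl22l1 in naive-like T cells of PBM (189 to 195), 168 in effector CD8 T cells of Control, 165 in regulatory T cells, and 211 and 213 in cycling T cells of Control and PBM. NK-like cells had 200 and 186, B-like cells 141 and 160, monocytes 116 and 126, macrophages of Control 141 and Sparc-led cells 58.8. Rpl36al, a retrocopy of Rpl36a that makes nearly the same protein, took 253 per 1000 of its pair in naive-like T cells, 346 in effector CD8 T cells and 382 in regulatory T cells, and 461 in Control monocytes, where its UMIs came close to those of Rpl36a. It took 206 in Sparc-led cells. The lowest shares of Rpl22l1 and Rpl36al among these labels were thus both in the Sparc-led cells.

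**Figure D4:**
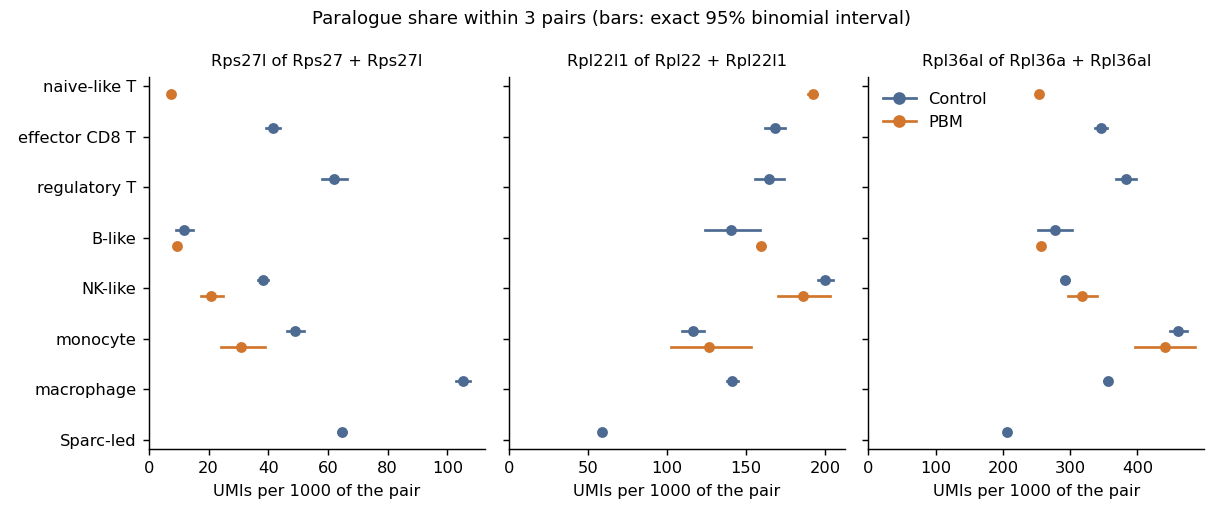
UMIs of the paralogue per 1000 UMIs of its pair (x axis) for Rps27l, Rpl22l1 and Rpl36al in 8 cell labels (y axis), Control in blue and PBM in orange, with exact 95% binomial intervals as bars. Rps27l runs from 7.33 in naive-like T cells to 105 in macrophages, and the Sparc-led cells have the lowest Rpl22l1 and Rpl36al.

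The other paralogues were rare. Rpl3l, known from heart and skeletal muscle, had 130 UMIs in Control monocytes (35.1 per 1000 of Rpl3 and Rpl3l) and 10 in PBM monocytes (26.7 per 1000), 53 in Control macrophages (2.97 per 1000) and 21 in dendritic-like cells (30.3 per 1000). In T-like cells it had 13 UMIs in Control and 0 in PBM, which allows up to 0.0347 per 1000, and in B-like cells 0 in both, which allows up to 3.98 and 0.0620 per 1000. It thus followed monocytes, dendritic-like cells and, with 6 UMIs, neutrophil-like cells. Rpl7l1, a factor of large-subunit assembly rather than of the finished ribosome, took 23.3 and 17.3 per 1000 of its pair in T-like cells and 45.0 and 48.7 in monocyte/macrophage-like cells. Rpl10l, known from testis, had 2 UMIs in each library over all cells.

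The symbol rule has members at its edge that are not ribosomal proteins by function. Rps19bp1, a binding partner of Rps19, was at 31.1 and 26.7 CPM in T-like cells. Just outside the rule, Rpl9-ps6 had 29459 UMIs in Control and 56112 in PBM, Rpl10-ps3 24072 and 24196 and Rpl36a-ps1 5257 and 7594. All 5 pseudogenes left out came to 2.58 and 3.07 UMIs per 1000 of the members. Ribosomal proteins whose names fall outside the rule include Fau, made as a fusion of a ubiquitin-like protein with a small-subunit protein, and Rack1, a signalling scaffold on the small subunit. In T-like cells Fau was at 5788 and 6996 CPM and Rack1 at 2529 and 3394, and neither reached a ratio of 1.5. In NK-like cells they were at 5282 and 5960, and 2916 and 2460 CPM.

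By the median over genes, no other list of the translation machinery was raised as far as the members in T-like cells. Of 21 elongation factors and other TOP genes 1 was called higher in PBM and 0 lower, with a median log2 ratio of 0.13. The gene called was Eef1b2, a subunit of the elongation factor exchange complex, at 1428 CPM in Control and 2321 in PBM. Tpt1, a TOP mRNA of a growth-related protein, was at 8395 and 12219 CPM, and Ybx1, an mRNA-binding protein, at 597 and 410. The log2 ratios of Eef1b2 and Tpt1 were 0.70 and 0.54, against a median of 0.56 over the members, and that of Ybx1 was -0.54. For the summed CPM of these TOP genes the log2 ratio was 0.38. Of 23 initiation factors 1 was called higher and 3 lower, with a median of -0.27. Eif4a2, an RNA helicase, was at 73.5 and 134 CPM, and Eif4ebp1, the mTORC1 target that blocks the cap-binding factor, at 45.8 and 11.2. Of 42 genes for ribosome assembly 2 were called higher and 0 lower, with a median of 0.14. Of 20 genes of mTORC1 and its control of TOP mRNAs 1 was called higher and 5 lower, with a median of -0.28. Ddit4, an inhibitor of mTORC1 induced by stress, was at 119 and 52.0 CPM. Of 77 mitochondrial ribosomal proteins 2 were called higher and 7 lower, and of 12 mitochondrially encoded genes 0 higher and 12 lower, with a median of -1.84. These counts are set against the 13.0% and 28.5% of all genes given above.

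In NK-like cells 1 of 42 ribosome assembly genes was called higher in PBM and 21 lower, where 18.0% of all genes were lower, with a median log2 ratio of -0.58. The cluster led by Gzmc, Gzmd and Gzme lay almost wholly in Control, and its part in this result was not tested. Noc2l, a nucleolar protein, was at 53.4 CPM in Control and 19.9 in PBM, Gnl3, a nucleolar GTPase, at 38.6 and 16.6, and Polr1b, a subunit of RNA polymerase I, had 77 and 1 UMIs. Eif5a, an elongation and initiation factor, was at 667 and 362 CPM. The ribosomal protein genes themselves had a median of -0.10 in the same cells. In B-like cells 6 of 42 assembly genes were called higher (10.8% of all genes) and 2 lower (24.9%), and Myc, the transcription factor that drives ribosome production, was at 121 and 45.3 CPM. In monocyte/macrophage-like cells 3 of 42 were called higher (19.0% of all genes) and 9 lower (18.3%), the latter near the share of all genes. Between naive-like T cells of PBM and effector cells of Control 9 of 23 initiation factors were called lower in the naive-like cells and 2 higher, and 4 of 42 assembly genes lower and 1 higher, where 27.3% of all genes were lower and 20.9% higher. Among the gated cells of Control, 14 of 42 assembly genes were called lower in naive-gated cells (20.4% of all genes) and 1 higher (21.3%), and among those of PBM 2 lower (18.0%) and 0 higher (12.6%).

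Across 33 sums of a cell label in a library, each of at least 50 cells, the log2 levels of 1073 other genes at a mean of 100 CPM or more were correlated with the summed members. This is a description, since the sums share libraries, depth and a common total. Among the 5 genes most like the sum were Gm49804 with r = 0.986, Rack1 with 0.979 and Eef1b2 with 0.973. Rack1 ran from 941 to 3858 CPM over these sums and Eef1b2 from 444 to 2690 CPM. Among the members 67 of 86 had an r of 0.9 or more with the sum of the others, with Rps4x at 0.992 the highest. The lowest were Rpl3l at -0.74, Rps27l at -0.61, Rpl39l at -0.18 and Rps19bp1 at -0.12, so Rpl3l and Rps27l tended to run against the rest of the family. There were exceptions: Rps27l was at 368 CPM in Sparc-led cells, where the share was 29.0%. Rpl3l, at a mean of 4.99 CPM over the sums, was at 2.46 CPM in Control macrophages (16.6%) and 29.8 CPM in Control monocytes (18.8%).

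**Figure D5:**
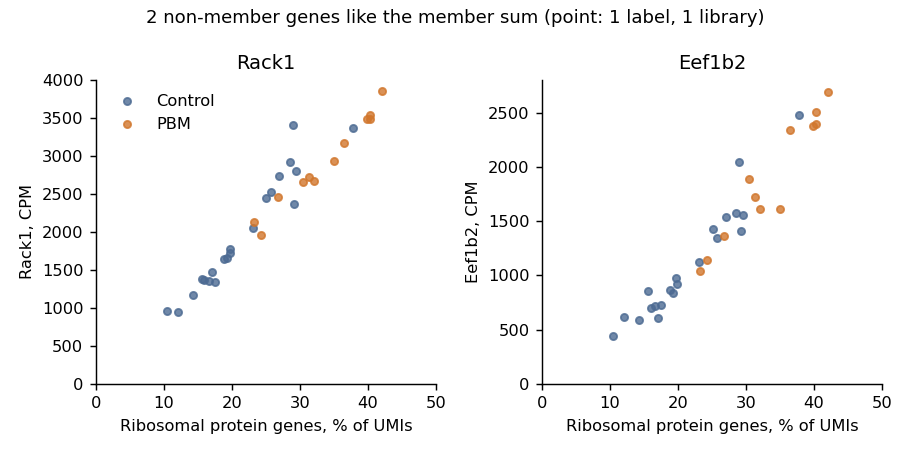
CPM of Rack1 and Eef1b2 (y axes) against the ribosomal protein share of UMIs in percent (x axis), where each point is the sum of 1 cell label in 1 library, Control in blue and PBM in orange. Both genes are higher in sums with a higher share, and the PBM sums lie mostly at the higher shares.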

How the data were processed

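The deposited matrices hold raw UMI counts by gene and barcode, which the authors did not normalize. The submitters' processing notes name Cell Ranger 7.2.0 and mm10, and the matrix headers name PISA 0.12, so which program made them is not settled. Per the labels' protocols, tumours were digested for 20 min in collagenase IV at 1 mg/mL and DNase at 50 U/mL, and libraries were made with a 10x 3′ kit of version 3.1. Every barcode held more than 1000 UMIs (lowest 1002 and 1005).

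Barcodes under 500 UMIs or 200 genes, or over 10% mitochondrial UMIs, were dropped (11 Control, 1 PBM). Scrublet, run on each library in scanpy 1.11.5, removed 1.34% and 6.44% of cells as doublets against 8.99% and 11.2% expected, so doublets remain. Symbols of both lists, without ribosomal protein, mitochondrial, cell cycle and antigen receptor genes, gave 2000 variable genes, 30 principal components, 15 neighbours and Leiden clusters at resolution 1. T-like and monocyte/macrophage-like cells were re-clustered with 20 components. A cluster was named where at least 3 markers were 1.5-fold above the mean of clusters in at least 10% of cells, and no other class had more markers among its 10 leading genes. After the clusters were seen, subtype markers were counted as a class's own, and Cd4, Cd40lg, Cd8a and Cd8b1 were not counted against a T subtype. Sub-clusters that failed stay unnamed but count in their class. Main clusters that failed, led by Cd209a (318 Control and 94 PBM cells), Gzmm (9 and 798) and Gm10800 (101 and 28), are in no class.

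Shares are summed member UMIs over summed UMIs, with exact Clopper-Pearson intervals. Ratios have exact conditional binomial intervals and were checked on simulated counts. PCR copies are collapsed by UMI, and intervals cover counting error only. TMM factors came from edgeR 4.0.16, which was used for nothing else. Free RNA was estimated as the median over markers of other classes with at least 500 UMIs in the library and subtracted at the library's mean make-up. Single markers differed widely, from 9.51% to 57.6% in Control T-like cells and from 6.54% to 250% in Control B-like cells. Results with free RNA subtracted are therefore rough. Members named for the pool are the 5 largest and 5 smallest with at least 100 UMIs, and from each other list the 3 largest ratios, of which those described are a selection. Coordinates and starts are from RefSeq (GRCm38.p6), where all 86 members matched, and shared 50-base stretches from GENCODE vM21 transcripts. Members on chromosome 18 are shown without sequence. The members and lists were chosen with earlier results of these data known. Some genes that the naming rules would include are not reported here.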

Additional observations from a re-analysis of the deposited data

Results flagged for a closer look

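The difference in ribosomal protein share between the libraries did not have the same direction in the 4 classes. PBM minus Control was 12.4 percentage points in T-like cells, 5.81 in B-like cells, 2.49 in monocyte/macrophage-like cells and -1.86 in NK-like cells. With 1 library per group the difference between classes was not tested. The NK-like value changed sign among cells of 2000 to 6000 UMIs, and with called doublets kept and all cells clustered anew. The monocyte/macrophage-like value changed sign with free RNA subtracted. The T-like and B-like values were positive under every alternative run.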

How the results depend on the processing

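No paired analysis was possible because each group has 1 library and no test was made. The differences in percent of UMIs below are PBM minus Control unless said otherwise, in percentage points. With doublets kept, all cells were clustered and named anew, so a class there differs by more than the added doublets. In T-like cells 12.4 became 12.7 at clustering resolution 0.5, 12.8 with doublets kept, 14.0 as a median over cells, 14.1 with cells thinned to 1000 UMIs, 12.2 with free RNA subtracted, 12.9 in cells of 2000 to 6000 UMIs and 12.1 in barcodes with N equal to 1. Of 2 settings chosen after seeing the data, the mean over T-like clusters with at least 50 cells in both libraries gave 5.02, and leaving out clusters of under 50 cells in either library gave 11.4. In the order doublets kept, median over cells, thinned, free RNA subtracted, 2000 to 6000 UMIs and N equal to 1, the B-like difference of 5.81 became 6.45, 4.45, 4.80, 4.38, 5.23 and 4.98, and the NK-like difference of -1.86 became 1.81, -1.02, -1.25, -5.06, 0.0994 and -2.12. In the same order the monocyte/macrophage-like difference of 2.49 became 4.67, 2.10, 2.10, -2.18, 2.36 and 1.68, and that of monocytes, 4.41, became 2.35, 3.13, 3.20, 0.160, 2.53 and 3.35. The monocyte/macrophage-like value was 3.23 and 4.202 at resolutions 0.5 and 2, and the monocyte value 4.65 with sub-clustering at 2. The causes were not tested. Naive-like T cells of PBM minus effector cells of Control, 12.8, became 13.7 and 13.4 with sub-clustering at 0.5 and 2, and 5.36 and 5.51 with gated cells of Control and of PBM alone. Macrophages minus monocytes of Control, -2.17, became -2.88 and -2.55 with sub-clustering at 0.5 and 2.

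The number of members called higher in T-like cells, 39, was 2 at a ratio of 2, 71 with other genes' UMIs as denominator and 66 with TMM factors. In B-like cells 0 became 4 with that denominator, 11 with TMM and 1 with free RNA subtracted. In NK-like cells 1 higher became 0 at a ratio of 2, and 2 lower became 1 with at least 100 UMIs, 0 at a ratio of 2, 4 with the other denominator, 4 with TMM, 5 with free RNA subtracted and 1 with doublets kept. In monocyte/macrophage-like cells 5 higher became 3 at a ratio of 2, 3 with free RNA subtracted, 9 with doublets kept and 10 at resolution 2, and 0 lower became 15 with free RNA subtracted. Among these settings the share of all genes was computed only with TMM factors and with the other denominator. With that denominator 13.7% of all genes were higher in B-like cells and 19.0% lower in NK-like cells. The counts under the other settings cannot be set against all genes. The T-like pool ratio of Rps27l, -1.61, was -1.48 with free RNA subtracted. Of 222 pool ratios of named members under alternatives 218 kept their direction, and the exceptions, all with free RNA subtracted, were Rps27l in B-like (0.15), monocyte/macrophage-like (0.045) and monocyte cells (0.035) and Rpl12 in monocytes (-0.032). The 206 Control B-like, 197 PBM NK-like and 176 PBM monocyte/macrophage-like cells limit what depth can show in those classes.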

Other observations

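Clusters and sub-clusters not described so far also held high and low shares. A cluster of 9 Control and 798 PBM cells, which met 9 of 9 T cell markers but was kept out of the T-like class by its leading genes, was led by Gzmm, a granzyme, Ly6c2 and Samd3. Its PBM cells had 40.3% of their UMIs in ribosomal protein genes, as high as the naive-like T cells, with deciles of 30.9% to 47.6%. The highest share of a T-like sub-cluster was 42.1%, in 1135 PBM cells led by Ccr9, Cd8b1 and Tmem108. A T-like sub-cluster of 167 PBM cells led by Itm2a, Mettl1 and Srm, of which the last makes spermidine, had 36.4% and the highest summed level of the 42 ribosome assembly genes of any label, 8022 CPM against 2870 CPM in naive-like T cells of PBM. Its ribosomal protein share was thus below that of naive-like T cells at a higher level of assembly genes. The Sparc-led cells had the next highest assembly level, 4807 CPM, with a ribosomal protein share of 29.0%.

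At the low end, 283 Control macrophages led by Malat1, a nuclear non-coding RNA, had 12.8%, and 254 unnamed Control myeloid cells led by Camk1d, Gm42418 and Gm48099 had 10.5%, against 15.6% in 40 PBM cells of the same sub-cluster. A cluster led by Gm10800 and Gm10801 had 15.6% in 101 Control cells, with a median over cells of 7.63%, and 29.1% in 28 PBM cells.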
